A study of Capra hircus with 9 samples.

Results

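The enzymes that write and erase methyl groups on DNA and the catalytic subunits of Polycomb repressive complex 2 (PRC2) were followed in the submandibular gland, a major salivary gland, of goats of 3 ages. The set held 9 genes, selected as rows by their names: the DNA methyltransferases DNMT1, DNMT3A and DNMT3B, the DNMT1 recruiter UHRF1, the dioxygenases TET1, TET2 and TET3, and the histone methyltransferases EZH1 and EZH2. All 9 were found among 21232 genes, and their 37 transcripts were found among 52739. RNA-seq was performed on whole glands from healthy female Lubo goats, 3 kids of 1 month (group A), 3 unbred adolescents of 12 months (group B) and 3 adults of 24 months (group C). No animal is described as carrying a genetic change, and no treatment set the groups apart. The paper reports equal rearing conditions for all goats, with natural light and free access to food, and does not describe the diet at each age. Before slaughter, all goats were fasted from food and liquids and anaesthetised with xylazine hydrochloride. The goats differed between ages, so that age was compared across animals and never within an animal. In whole tissue, fewer cells that express a gene and less RNA of it per cell cannot be told apart.

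DNA methylation is copied after each round of replication by DNMT1, which UHRF1 guides to the newly made, hemimethylated CpG sites. DNMT3A and DNMT3B place methyl groups on sites that had none, and the TET enzymes oxidise methylcytosine, a step towards its removal. EZH2 and EZH1 are alternative catalytic subunits of PRC2 that place a repressive methyl mark on histone H3, which complexes of the PRC1 type bind. As background, UHRF1, DNMT1 and EZH2 are known to be abundant in dividing cells, including developing thymocytes, whereas EZH1 is known to prevail in tissues that no longer divide.

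The libraries held between 11546800 and 24901100 expected counts each, and 3 counts corresponded to 0.150 to 0.195 CPM, the unit of counts scaled by library size used below. Library A2 stood apart from the others of its age, and values without it are given beside the results on the 9 genes and the called partner genes and transcripts. The summed level of 13 salivary gland marker genes was 513 CPM in A2, against 27023 and 19835 CPM in A1 and A3 and 99851 to 182948 CPM in the older groups. MUC19, the main gel-forming mucin in this list, stood at 51.7 CPM in A2 and at 17352 CPM or more in each other library. A list of 15 thymocyte genes summed to 4378, 16522 and 2231 CPM in A1, A2 and A3 and to 15.9 to 35.3 CPM in groups B and C. The 5 thymic epithelium genes, which include FOXN1, summed to 180, 716 and 70.6 CPM in group A and to at most 2.66 CPM in the older libraries. The 22 cell cycle genes summed to 1901, 5315 and 1608 CPM in group A and to 180 to 237 CPM in groups B and C. The B cell list of 6 genes summed to 49.5, 312 and 104 CPM in group A and to 5.35 to 20.9 CPM later. On a list of erythroid and myeloid precursor genes, of which 4 were found, A3 stood apart instead. This list summed to 3.45, 18.7 and 338 CPM in A1, A2 and A3 and to 0.06 to 2.37 CPM later. All 15 thymocyte genes and 20 of the 22 cell cycle genes were called lower at each older age. Of all genes, 9.36% were called lower in group B and 9.01% in group C. Some listed genes passed the filter on low counts through group A alone and could be called only lower. RAG2, DNTT and ARPP21 in group B and PTCRA in group C, at 3 counts or fewer in each library, were such genes. The part of both lists in the results on the 9 genes was not tested beyond the values given here.

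A gene was called when its adjusted p was under 0.05 and its absolute log2 fold change was over 2, with fold changes written as the older minus the younger group. At 12 months, 3 of the 9 genes were called lower than at 1 month (UHRF1, EZH2 and DNMT1) and 0 higher. Of all genes tested, 9.36% were called lower, 2.12% higher and 11.5% in either direction. At the adjusted p alone, 4 of the 9 genes were lower and 0 higher, where 11.7% and 6.52% of all genes were. At 24 months, 2 of the 9 genes (UHRF1 and EZH2) were called lower than at 1 month and 0 higher, where 9.01% of all genes were called lower, 4.23% higher and 13.2% in either direction. Again 4 of the 9 were lower and 0 higher at the adjusted p alone, where 10.4% and 7.1% of all genes were. The median log2 fold change of the 9 genes was -1.57 at 12 months and -1.47 at 24 months, and the corresponding median of all genes was -0.02 and -0.01. Both comparisons rest on the same group A libraries and are given side by side. The libraries of groups A and B did not overlap for 6 of the 9 genes, each lower in group B, where 26.4% of all genes were lower without overlap. The same 6 genes were lower without overlap in group C, where 23.1% of all genes were.

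**Figure D1:**
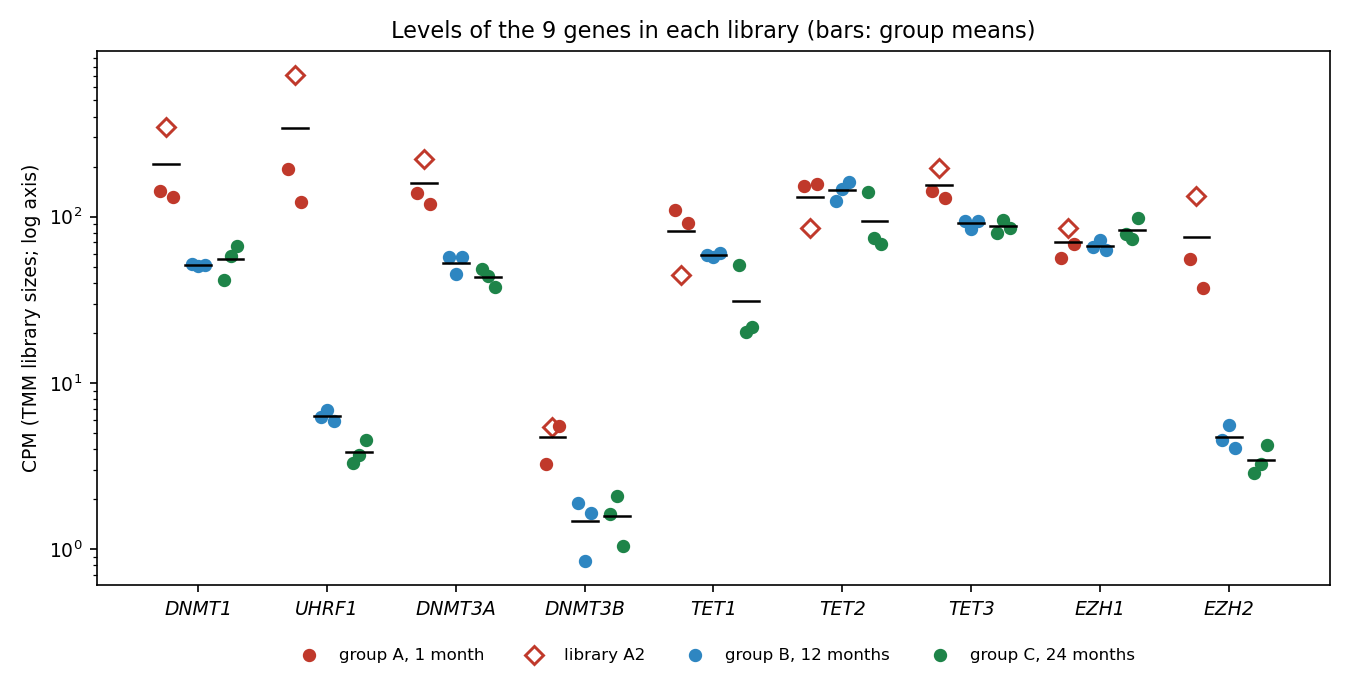
Level of each of the 9 genes in the 9 libraries in CPM (log axis), with red points for group A (1 month), blue for group B (12 months) and green for group C (24 months), an open diamond for library A2 and a bar at each group mean. UHRF1 and EZH2 lie at 37.2 CPM or more in each group A library and at 6.87 CPM or less in each older one, whereas the EZH1 points of the 3 ages lie between 56.2 and 98.2 CPM.

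UHRF1 showed the largest difference of the 9 genes. Its level was 193, 711 and 123 CPM in libraries A1, A2 and A3, then 6.27, 6.87 and 5.94 CPM in group B and 3.32, 3.69 and 4.53 CPM in group C. A2 held the highest level, but A1 and A3 also lay far above every older library. UHRF1 was 53.8-fold lower in group B (log2 fold change -5.75 ± 0.82 SE, adjusted p = 0.01001) and 84.8-fold lower in group C (-6.41 ± 0.84 SE, adjusted p = 0.00441). Without A2 the differences were 24.9-fold (-4.64 ± 0.22 SE, adjusted p = 0.00021) and 38.3-fold (-5.26 ± 0.37 SE, adjusted p = 9.34e-05). The call between groups A and C held in all 15 alternatives, with an adjusted p of at most 0.0467. The call between groups A and B was lost without B1, B2 or B3, where the adjusted p was 0.0590, 0.0678 and 0.0646 at log2 fold changes of -5.72, -5.80 and -5.70. With 1 of these group B libraries left out, only 0, 67 and 110 genes were called in the whole table, against 1679 with all 6 libraries.

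DNMT1, the methyltransferase that UHRF1 recruits, was also higher at 1 month than later, with a smaller difference. Its level was 143, 345 and 131 CPM in group A, 52.1, 50.3 and 51.1 CPM in group B and 41.4, 57.7 and 67.1 CPM in group C. Every group A library lay above every older library, and the spread within group B (51.2 ± 0.87 CPM, mean ± SD, n = 3) was the narrowest of the 3 ages. DNMT1 was 4.0-fold lower in group B (-2.0001 ± 0.46 SE, adjusted p = 0.0301), a value that only just passed the fold threshold, and 3.52-fold lower in group C (-1.81 ± 0.52 SE, adjusted p = 0.0453), which did not pass it. Without A2 the log2 fold changes were -1.43 (adjusted p = 0.000583) and -1.21 (adjusted p = 0.0222), so that neither reached the fold threshold. Without B1, B2 or B3 the adjusted p between groups A and B was 0.118 to 0.125, and without C1, C2 or C3 that between groups A and C was 0.129 to 0.154.

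Among the de novo methyltransferases, DNMT3A was measured at 138, 223 and 120 CPM in group A, 57.0, 45.1 and 57.0 CPM in group B and 48.6, 44.0 and 38.0 CPM in group C. The older groups overlapped each other and lay wholly below group A. The log2 fold change was -1.57 ± 0.35 SE in group B (adjusted p = 0.0266) and -1.80 ± 0.41 SE in group C (adjusted p = 0.0217), or 2.98-fold and 3.47-fold, below the fold threshold. Without A2 the differences were -1.29 (adjusted p = 0.00201) and -1.47 (adjusted p = 0.00769). They no longer passed the adjusted p without B1, B2 or B3 (0.110 to 0.126) or without C1, C2 or C3 (0.0604 to 0.107).

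DNMT3B was much scarcer, at 3.25, 5.47 and 5.50 CPM in group A, 1.90, 0.85 and 1.67 CPM in group B and 1.63, 2.09 and 1.05 CPM in group C. Group A overlapped neither older group, yet the log2 fold changes of -1.65 ± 0.49 SE (adjusted p = 0.0584) and -1.47 ± 0.56 SE (adjusted p = 0.106) missed the threshold. A2 was not above A3 for this gene, and without A2 the fold change between groups A and B passed the adjusted p (-1.58, adjusted p = 0.0427), whereas that between groups A and C did not (-1.35, adjusted p = 0.120). With known transcripts only, the value between groups A and C was -0.30 (adjusted p = 0.929). These levels rest on few reads, and a difference between groups B and C was not detectable (log2 fold change 0.17 ± 0.53 SE).

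The TET dioxygenases were not called at either older age. TET1 was measured at 110, 44.8 and 92.2 CPM in group A, 58.5, 57.3 and 60.6 CPM in group B and 50.9, 20.2 and 21.8 CPM in group C. Library A2 held the lowest level of its group, in contrast to its high levels of UHRF1, DNMT1 and EZH2, and C1 lay above C2 and C3. The log2 fold change of TET1 was -0.43 ± 0.34 SE in group B (adjusted p = 0.381) and -1.31 ± 0.49 SE in group C (adjusted p = 0.0996). Without A2 the values were -0.79 ± 0.13 SE (adjusted p = 0.00480) and -1.61 (adjusted p = 0.0222), both past the adjusted p and neither past the fold threshold. In that fit 43.7% and 28.3% of all genes passed the adjusted p in either direction.

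TET2 was measured at 152, 86.0 and 156 CPM in group A, 125, 146 and 161 CPM in group B and 140, 75.0 and 68.9 CPM in group C. A2, C2 and C3 were again the lowest libraries, and the log2 fold changes were 0.19 ± 0.30 SE (adjusted p = 0.671) and -0.37 ± 0.42 SE (adjusted p = 0.569). Without A2 they were -0.11 (adjusted p = 0.569) and -0.61 (adjusted p = 0.241). Across 14816 genes, the deviations of A2 from its group mean correlated with those of C2 and C3 at 0.15 and 0.28 and with those of C1 at -0.36, values that describe these libraries and whose part in the TET results was not tested.

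TET3 did not share this pattern. Its level was 143, 195 and 130 CPM in group A, 94.8, 84.3 and 94.2 CPM in group B and 80.0, 96.2 and 85.9 CPM in group C. Every older library lay below group A, but the log2 fold changes of -0.75 ± 0.28 SE (adjusted p = 0.106) and -0.74 ± 0.37 SE (adjusted p = 0.199) did not pass. Without A2 the value in group B passed the adjusted p (-0.59, adjusted p = 0.0113), and that in group C did not (-0.54, adjusted p = 0.194).

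The Polycomb methyltransferases EZH2 and EZH1 differed from each other in their course with age. EZH2 was measured at 55.3, 134 and 37.2 CPM in group A, 4.55, 5.56 and 4.05 CPM in group B and 2.87, 3.24 and 4.22 CPM in group C. The lowest group A library, A3, lay well above the highest older one, B2. EZH2 was 15.9-fold lower in group B (-3.99 ± 0.58 SE, adjusted p = 0.0104) and 20.7-fold lower in group C (-4.37 ± 0.61 SE, adjusted p = 0.00558). Without A2 the differences were 9.84-fold (-3.30 ± 0.23 SE, adjusted p = 0.000441) and 12.5-fold (-3.65 ± 0.37 SE, adjusted p = 0.000334). With known transcripts only, which leaves out the new EZH2 transcript, the log2 fold changes were -4.59 and -5.37. As for UHRF1, the call between groups A and C held in all 15 alternatives (adjusted p at most 0.0467), and that between groups A and B was lost without B1, B2 or B3 (adjusted p = 0.0605, 0.0671 and 0.0648).

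EZH1 was measured at 56.2, 85.8 and 68.8 CPM in group A, 65.5, 72.2 and 63.2 CPM in group B and 78.5, 73.6 and 98.2 CPM in group C. Its log2 fold change was -0.04 ± 0.27 SE in group B (adjusted p = 0.928) and 0.34 ± 0.36 SE in group C (adjusted p = 0.539). Without A2 these values were 0.09 (adjusted p = 0.657) and 0.51 (adjusted p = 0.236). The ratio of EZH2 to EZH1 counts within each library was compared between group A and the 6 older libraries. It was 0.984, 1.56 and 0.540 at 1 month, 0.0697, 0.0777 and 0.0644 at 12 months and 0.0372, 0.0447 and 0.0432 at 24 months, so that every older library lay below every young one. Counts were not divided by length, so only the change of the ratio can be read. The ratio was 17.4-fold lower in the older libraries (log2 difference -4.12, two-sided exact permutation p = 0.0238, the smallest that 84 arrangements allow, and 0.0952 after adjustment over 4 ratios). Leaving out each library in turn gave log2 differences of -4.52 to -3.75, and known transcripts alone gave -5.74.

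The other 3 ratios did not separate the ages. The log2 difference of the older libraries from group A was 0.07 for DNMT3B to DNMT3A (exact permutation p = 0.833), -0.13 for DNMT1 to DNMT3A (exact permutation p = 0.643) and -0.13 for TET1 to TET3 (exact permutation p = 0.571), each with an adjusted p of 0.833. The TET1 to TET3 ratio was 0.229 in A2, 0.210 in C2 and 0.254 in C3, against 0.617 to 0.765 in the other 6 libraries.

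**Figure D2:**
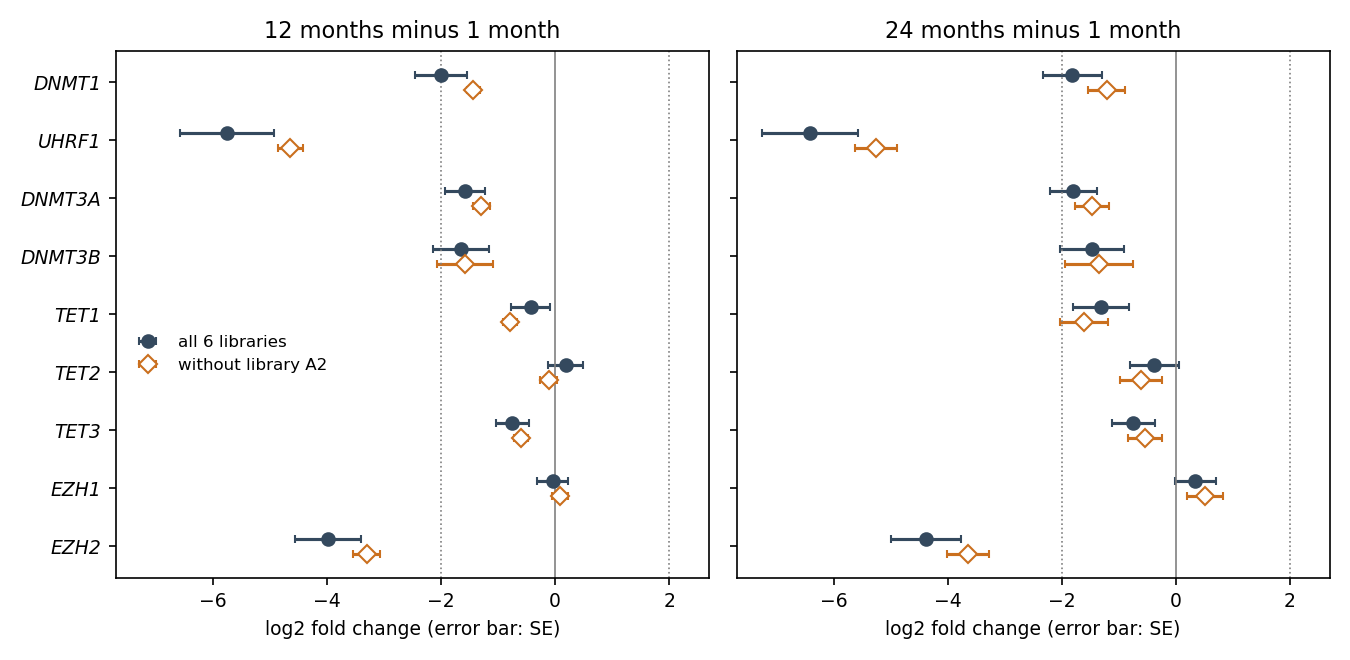
Log2 fold change of each gene with its standard error, for 12 minus 1 month (left) and 24 minus 1 month (right), from all 6 libraries of the pair (filled) and without library A2 (open); dotted lines mark the fold threshold. UHRF1 and EZH2 stay beyond the threshold without A2, at -4.64 and -3.30 on the left and -5.26 and -3.65 on the right, whereas DNMT1 moves to -1.43 and -1.21.

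Between the adolescent and adult glands, 0 of the 9 genes were called by edgeR's quasi-likelihood test, and 0% of the 14080 genes tested were. The Wald test of DESeq2 called 10 genes and the exact test of edgeR 13, with 0 of the 9 among them in either test. TET1 was the only one of the 9 with an unadjusted p under 0.05, where 11% of all genes had one. TET1 stood at 58.8 ± 1.67 CPM in group B and 31.0 ± 17.3 CPM in group C (mean ± SD, n = 3), a log2 fold change of -0.88 ± 0.35 SE (unadjusted p = 0.0297, adjusted p = 0.426). The groups did not overlap for TET1 and UHRF1, both lower in group C, nor for EZH1, which was higher. UHRF1 differed by -0.67 ± 0.32 SE (adjusted p = 0.426) and EZH1 by 0.36 ± 0.22 SE (adjusted p = 0.443). Among all genes 7.57% were lower and 7.8% higher without overlap. TET1 and TET2 depended on library C1: without it their log2 fold changes were -1.43 (adjusted p = 0.00862) and -0.95 (adjusted p = 0.0111), in a fit where 4655 genes passed the adjusted p. EZH2 differed by -0.41 ± 0.36 SE (adjusted p = 0.552), and DNMT1, DNMT3A, DNMT3B and TET3 lay between -0.23 and 0.17.

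Since 20 of the 22 cell cycle genes were also called lower with age, each gene was expressed as a percentage of the summed level of that list in the same library. EZH2 amounted to 2.91, 2.52 and 2.31% in group A. It amounted to 2.29, 2.38 and 2.18% at 12 months and 1.59, 1.48 and 1.78% at 24 months. The percentages of EZH2 in groups A and B overlapped, while its CPM level differed 15.9-fold, and those of group C lay below both. UHRF1 amounted to 7.67 to 13.4% at 1 month, 2.94 to 3.20% at 12 months and 1.68 to 1.91% at 24 months, so it stayed lower at each older age on this scale. The other 7 genes were higher relative to the list in every older library, DNMT1 for example with 6.50 to 8.16% in group A and 21.6 to 28.3% in groups B and C. Relative to the thymocyte list, EZH2 amounted to 0.81 to 1.67% in group A and to 8.89 to 34.9% in the older groups, and UHRF1 to 4.30 to 5.52% and to 10.3 to 43.1%. These percentages are descriptions, and no cell type was assigned to any of the 9 genes.

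**Figure D3:**
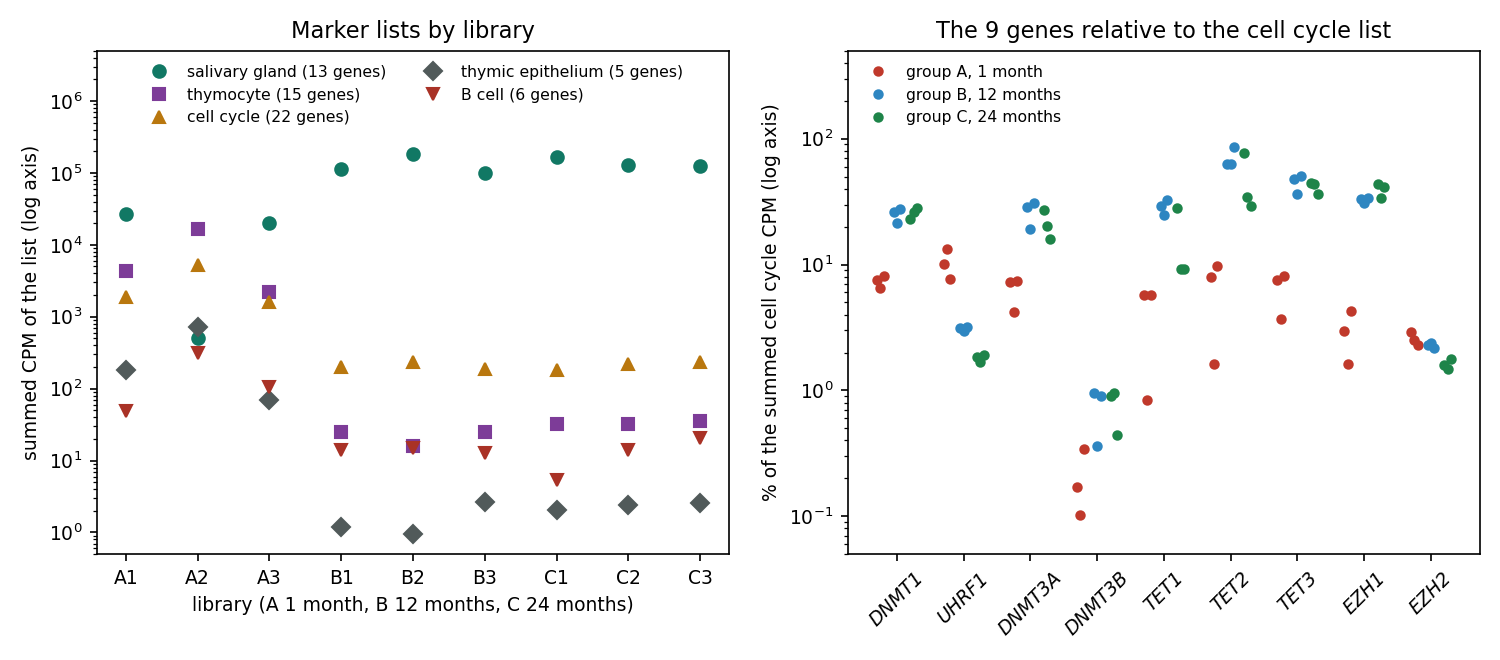
Summed CPM of 5 marker lists in each library on a log axis (left), and each of the 9 genes as a percentage of the summed cell cycle CPM of the same library on a log axis, coloured by age (right). The salivary gland sum of 513 CPM in A2 lies below all other libraries, and EZH2 amounts to 2.18 to 2.91% of the cell cycle sum at 1 and 12 months and to 1.48 to 1.78% at 24 months.

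At the level of transcripts, 36 of the 37 had a count above 0 in some library, and 26, 24 and 23 passed the filter on low counts in the comparisons of A with B, A with C and B with C. At 12 months, 2 transcripts were called lower than at 1 month and 0 higher, where 2.35% of all transcripts were called lower and 0.386% higher. Both belonged to UHRF1. XM_018050890.1 was measured at 141, 505 and 88.0 CPM in group A and 5.72, 5.83 and 5.26 CPM in group B (log2 fold change -5.43 ± 0.81 SE, adjusted p = 0.0376). XM_018050891.1 was measured at 47.0, 176 and 34.7 CPM and then at 0.39, 0.88 and 0.48 CPM (-7.17 ± 0.93 SE, adjusted p = 0.0341). XM_018050891.1 passed the filter through its group A counts, so that it could be called only lower. At 24 months, 3 transcripts were called lower than at 1 month and 0 higher, where 1.26% and 0.242% of all were. Between groups B and C, 0 transcripts of the 9 genes and 0% of all transcripts were called.

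The 3 transcripts called between groups A and C came from UHRF1, EZH2 and DNMT3A. UHRF1 XM_018050890.1 stood at 3.20, 3.60 and 3.33 CPM in group C (-6.11 ± 0.85 SE, adjusted p = 0.0401). EZH2 XM_018046821.1 stood at 34.2, 86.6 and 26.6 CPM in group A and 1.03, 0.58 and 2.42 CPM in group C (-5.11 ± 0.83 SE, adjusted p = 0.0449). This EZH2 transcript passed the filter on low counts through its group A counts, so that it could be called only lower. DNMT3A XM_018055548.1, a minor form, stood at 9.34, 14.5 and 5.67 CPM in group A and had no count in group C, which makes it at least 62.0-fold lower (adjusted p = 0.0439, floor of 3 counts per library). This form passed the filter on low counts through group A alone and could be called in no other direction. Without A2, 3 transcripts were called at 12 months and 1 at 24 months. In that fit UHRF1 XM_018050890.1 was at -4.35 (adjusted p = 0.00782) and -5.03 (adjusted p = 0.0296) and XM_018050891.1 at -6.11 (adjusted p = 0.0102, 12 months). EZH2 XM_018046821.1 was at -4.44 (adjusted p = 0.0686), and DNMT3A XM_018055548.1 was at least 47.3-fold lower (adjusted p = 0.0809), so that neither was called. Leaving out any other library left 0 transcript calls in both comparisons.

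The share of each transcript in its gene was compared across libraries. RSEM divides reads among transcripts that overlap, so a share can move without a change of the gene. DNMT1 XM_018051019.1 held 78.1 to 99.1% of its gene in every library, TET1 XM_018042481.1 held 84.6 to 100% and TET2 XM_005681343.3 held 75.0 to 86.9%. DNMT3A XM_018055547.1 held 73.0 to 96.0%, at 106, 170 and 91.2 CPM in group A, 46.5, 38.3 and 40.3 CPM in group B and 40.0, 41.2 and 32.4 CPM in group C. This main DNMT3A transcript did not pass the adjusted p at the transcript level in group B (-1.53 ± 0.34 SE, adjusted p = 0.0679) or in group C (-1.61 ± 0.39 SE, adjusted p = 0.0790). The paper took this transcript for quantitative PCR (RT-qPCR) from those that its own sequencing called differentially expressed. Its RT-qPCR did not show that difference, which the paper reported for no other of the transcripts it selected.

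TET3 XM_018055023.1 held 73.4, 68.0 and 67.8% of its gene in group A and 43.8 to 52.5% in the 6 older libraries, without overlap. Its own level was 103, 127 and 87.6 CPM in group A and 36.0 to 47.9 CPM later (-1.23 ± 0.28 SE, adjusted p = 0.0679, and -1.27 ± 0.35 SE, adjusted p = 0.0961). The other TET3 transcripts varied within an age, XM_018055024.1 from 0 to 22.3% in group A and XM_018055025.1 from 0 to 56.2% in group C. No test was run on the shares. In EZH2, the new transcript TCONS_00011677 held 14.9, 14.8 and 10.9% in group A and 33.3 to 82.4% in the older libraries, where the whole gene was at 2.87 to 5.56 CPM. The split of EZH1 varied among animals of the same age: TCONS_00059643 held from 7.18 to 94.7% and XM_018065135.1 from 0.18 to 78.5%, although the level of the gene lay within 56.2 to 98.2 CPM. The few DNMT3B counts moved between transcripts, and TCONS_00040357 held from 0% in B2 and C2 to 100% in C3.

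**Figure D4:**
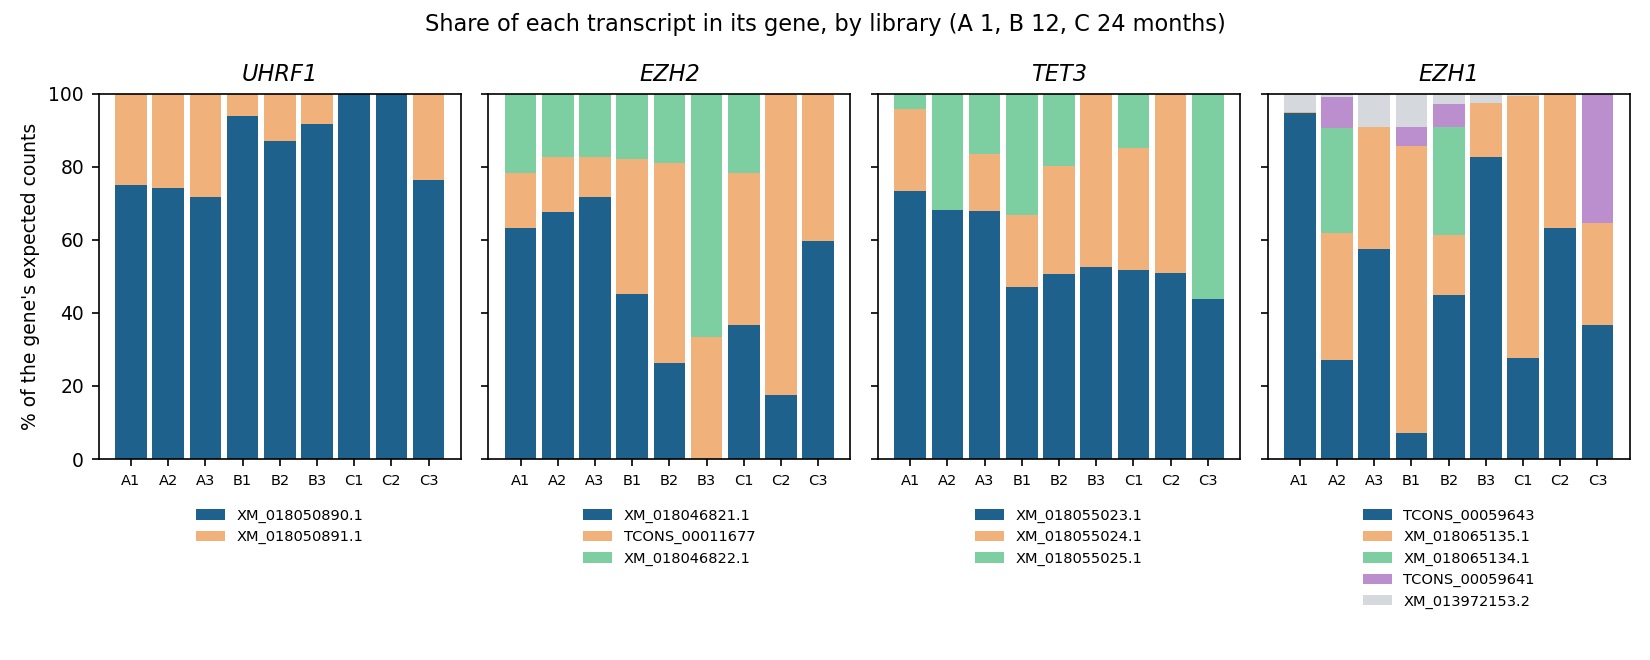
Percentage of the expected counts of UHRF1, EZH2, TET3 and EZH1 that each transcript held, as stacked bars for the 9 libraries. XM_018055023.1 of TET3 holds 67.8 to 73.4% at 1 month and 43.8 to 52.5% later, whereas the largest transcript of EZH1 ranges from 7.18 to 94.7% with no order by age.

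The genes that work with these enzymes were taken from lists of 26 partners of DNA methylation, 10 partners of PRC2, 22 PRC1 genes and 6 genes that oppose Polycomb, 64 in all. At 12 months, 6 of the 64 were called lower and 0 higher, with a median log2 fold change of -0.41. At the adjusted p alone 9 were lower and 1, the methyl-CpG binding repressor ZBTB4, was higher. Of all genes, 11.7% were lower and 6.52% higher at that threshold. At 24 months, 5 of the 64 were called lower and 0 higher, with a median of -0.39. At the adjusted p alone 6 were lower and 0 higher, where 10.4% and 7.1% of all genes were. The shares called lower over all genes are 9.36% and 9.01%, so that the partners were called about as often as genes at large. DNMT3L, called in both comparisons, passed the filter on low counts through group A alone and could be called only lower. Without A2, 4 partners were called lower in each comparison, where 10.2% and 9.66% of all genes were. Without B1, B2 or B3, 0 partners were called at 12 months, and without C1, C2 or C3, 3, 1 and 1 were called at 24 months.

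Of the DNA methylation partners, HELLS and DNMT3L were called in both comparisons. HELLS, a chromatin remodeller required for normal DNA methylation, was measured at 29.1, 20.2 and 23.0 CPM in group A, 3.68, 3.75 and 1.28 CPM in group B and 1.52, 1.25 and 0.79 CPM in group C. A2 held the lowest HELLS level of its group, and HELLS was lower with it (-3.01 ± 0.47 SE, adjusted p = 0.0118, and -4.23 ± 0.46 SE, adjusted p = 0.00269) and without it (-3.17, adjusted p = 0.00316, and -4.35, adjusted p = 0.000286). DNMT3L, a cofactor of the de novo methyltransferases without activity of its own, stood at 1.37, 8.87 and 1.88 CPM in group A. It was under 3 counts in every older library, at least 23.8-fold lower in group B (adjusted p = 0.0275) and 25.4-fold lower in group C (adjusted p = 0.0155). It passed the filter on low counts through group A alone, so that no call in the other direction was possible. Most of its group A level came from A2, without which the bounds were 9.55-fold (adjusted p = 0.00735) and 10.2-fold (adjusted p = 0.0115). UHRF2, the paralogue of UHRF1, stood at 46.2 to 51.0 CPM in group A, 20.2 to 26.7 CPM in group B and 12.3 to 22.8 CPM in group C (-0.99, adjusted p = 0.0342, and -1.42, adjusted p = 0.0341, and without A2 -1.03 and -1.41).

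Of the PRC2 partners, the core subunits SUZ12 and EED were not called. SUZ12 stood at 66.5, 41.9 and 59.9 CPM in group A, 43.9, 40.2 and 40.1 CPM in group B and 38.0, 13.7 and 20.1 CPM in group C (-0.39, adjusted p = 0.274, and -1.14, adjusted p = 0.107). Without A2 these values were -0.62 (adjusted p = 0.00902) and -1.31 (adjusted p = 0.0446), past the adjusted p and under the fold threshold. EED stood at 18.7 to 22.1 CPM in group A, 9.77 to 13.6 CPM in group B and 7.53 to 13.8 CPM in group C (-0.78, adjusted p = 0.0761, and -0.93, adjusted p = 0.128, and without A2 -0.90, adjusted p = 0.0124, and -0.99, adjusted p = 0.0747). The accessory subunits MTF2 and PHF19, which help to recruit PRC2, were each called in one comparison. MTF2 stood at 57.8, 33.9 and 47.6 CPM in group A and 11.03, 7.18 and 8.49 CPM in group C (-2.28 ± 0.39 SE, adjusted p = 0.00920, and -2.47 without A2). In group B it stood at 16.7, 13.7 and 18.4 CPM (-1.46, adjusted p = 0.0192, and -1.70 without A2), past the adjusted p and under the fold threshold. PHF19 stood at 15.6, 58.4 and 19.3 CPM in group A and 6.33, 3.86 and 4.55 CPM in group B (-2.66 ± 0.61 SE, adjusted p = 0.0295). Without A2 the value of PHF19 in group B was -1.84 (adjusted p = 0.00383), under the fold threshold. In group C it stood at 5.63, 9.18 and 9.65 CPM (-1.85, adjusted p = 0.0688, and without A2 -0.99, adjusted p = 0.0813).

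Of the PRC1 genes, PHC1 and CBX2 were called in both comparisons, and the other 20 were not. PHC1, a polyhomeotic scaffold subunit, stood at 27.3, 121 and 21.6 CPM in group A, 4.22 to 5.12 CPM in group B and 3.55 to 6.38 CPM in group C (-3.59 ± 0.76 SE, adjusted p = 0.0238, and -3.35 ± 0.76 SE, adjusted p = 0.0216). CBX2, a reader of the Polycomb mark, stood at 31.6, 88.6 and 15.1 CPM in group A, 3.94 to 6.27 CPM in group B and 3.85 to 8.73 CPM in group C (-3.23 ± 0.71 SE, adjusted p = 0.0264, and -2.90 ± 0.73 SE, adjusted p = 0.0305). Without A2, PHC1 kept its calls (-2.38 and -2.10), and CBX2 did so in group B (-2.29) but not in group C (-1.92). Of the opposing genes, ASXL1, a subunit of the Polycomb deubiquitinase, was called in group B (119.9, 456 and 66.7 CPM, then 31.9, 39.0 and 17.4 CPM, -2.87 ± 0.80 SE, adjusted p = 0.0497) and not without A2 (-1.67). In group C it stood at 24.2, 45.2 and 53.0 CPM (-2.32, adjusted p = 0.0685, and without A2 -1.09, adjusted p = 0.0748). The demethylase KDM6A, which removes the PRC2 mark, passed the adjusted p in group B (-1.07, adjusted p = 0.0407) and not in group C (-1.23, adjusted p = 0.0585), and without A2 in both (-0.97, adjusted p = 0.00474, and -1.08, adjusted p = 0.0394). Between groups B and C, 0 of 63 partners were called by any of the 3 tests. The 2 lowest unadjusted p values of each list belonged to TRIM28 and IDH2, MTF2 and PHF19, PCGF6 and PCGF1, and BAP1 and KDM6B, with log2 fold changes from -1.10 (PCGF6) to 0.79 (PHF19 and PCGF1) and adjusted p of 0.426 to 0.454.

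**Figure D5:**
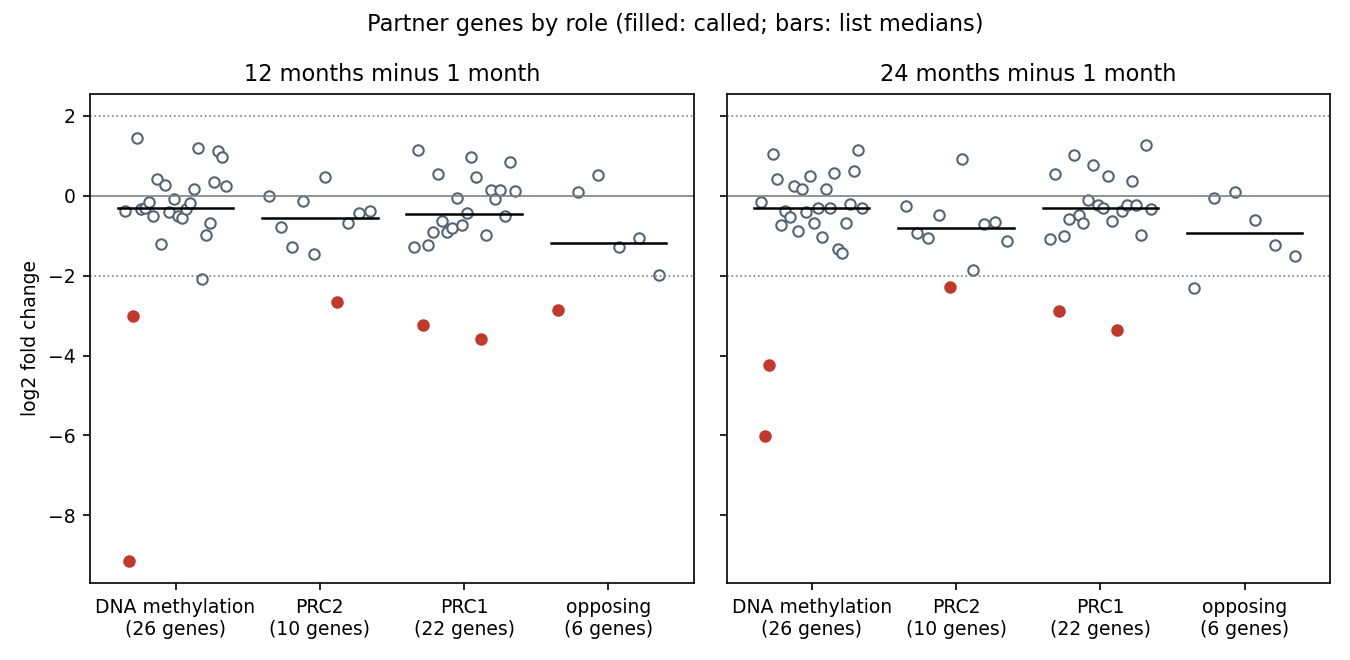
Log2 fold change of the 64 partner genes, grouped by role, for 12 minus 1 month (left) and 24 minus 1 month (right); filled points were called, open points were not, bars are list medians and dotted lines mark the fold threshold. The 6 called genes on the left and 5 on the right all lie below 0, and the points of most partners lie between the dotted lines.

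The genes whose pattern over the 9 libraries was most like that of each enzyme were found by the root mean square difference of centred log2(CPM + 1) values among 14868 genes. UHRF1 was closest to STMN1, APBB1IP and E2F2 (differences of 0.19, 0.28 and 0.29), and EZH2 to CNTN4, NUSAP1 and FYN (0.14, 0.20 and 0.23). STMN1, for example, stood at 188, 572 and 117 CPM in group A and at 2.69 to 8.17 CPM in the older libraries. DNMT1 was closest to RGAG4, TCF3 and PLCG1 (0.10, 0.14 and 0.15), DNMT3A to CDK2, INTS7 and GMEB1 (0.12 each) and DNMT3B to PSME2, LRRC4B and TRIM21 (0.13, 0.17 and 0.20). TET1 was closest to SCLT1, USP45 and RIC8B (0.12, 0.13 and 0.14) and TET2 to SHPRH, RAD17 and ABHD13 (0.10, 0.11 and 0.11), and these 6 genes shared the low values in A2, C2 and C3. TET3 was closest to FGF22, SSC4D and WNT16 (0.09, 0.10 and 0.10), all at 1.27 CPM or less. FGF22 and SSC4D stood at 0 CPM in every older library, where TET3 stood at 80.0 to 96.2 CPM. The 1 added to CPM shrinks changes near 0, so these matches do not mean a like fold change. The same holds for LRRC4B, at 1.75 CPM or less. EZH1 was closest to BRPF3, C25H16ORF62 and SIDT2 (0.10 each).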

How the data were processed

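Submandibular glands of 9 goats, 3 per age, were analysed from a table of expected counts per transcript. Per the labels and the study's methods, ribosomal RNA was removed, stranded libraries were sequenced on an Illumina instrument, ribosomal reads were filtered with Bowtie2 2.2.8, reads were aligned with TopHat2 2.1.1 and transcripts were assembled with Cufflinks. The genome build is not given in the sources used here. The authors deposited expected counts from RSEM, not scaled for depth or length; libraries hold 11546800 to 24901100.

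Expected counts were summed per gene, rounded and tested for each pair of ages on its 6 libraries with edgeR 4.0.16 in R 4.3.3 (filterByExpr, TMM and the quasi-likelihood test), and p was adjusted over all genes or transcripts tested by the Benjamini-Hochberg method. CPM values use TMM library sizes over the 9 libraries. Known transcripts were joined by gene identifier to RefSeq names (99.9% of identifiers matched, assembly ARS1.2, names only). The 432 transcripts without a gene symbol held 0.244 to 5.99% of the counts and were left out of gene tests. A call needs both an absolute log2 fold change over 2 and an adjusted p under 0.05, after the study's rule, whose FPKM threshold could not be applied to counts. Ratios of counts (0.5 added) were compared by exact permutation in scipy 1.17.1. The tests were also run on data simulated from the levels and spread of groups B and C, a check that does not cover the wider spread of group A.

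Named are the 9 genes, up to 3 called genes per direction with the largest changes in each partner and target list (the 2 lowest p values where a partner list had no call; further partner genes, such as UHRF2, ZBTB4, SUZ12 and EED, were named after their values were seen), called and main transcripts, and the 3 most alike genes. The 9 genes and all lists were chosen with earlier results of these data known. Libraries of an age are separate goats, and replicate numbers did not pair the libraries (correlations of same-numbered libraries from -0.19 to 0.34). Alternatives were RLE and upper-quartile scaling, no filter, DESeq2 1.42.0, edgeR's exact test, all 9 libraries in one fit, the replicate number as a block, known transcripts only, the adjusted p alone, leaving out each library, 5 in place of 0.5 added to the ratios and, chosen after seeing the data, total count scaling. Floors and counts cover counting error only.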

Additional observations from a re-analysis of the deposited data

How the results depend on the processing

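Between groups A and B, the count of 3 called genes of the 9 was 2 to 4 under the settings that kept all libraries and 0 to 3 when leaving out each library. Between groups A and C the count of 2 was 4 at the adjusted p alone, 6 with total count scaling, and 2 to 3 when leaving out each library. Of the transcripts, the 2 called at 12 against 1 month became 4 with total count scaling, 7 with DESeq2, 5 with edgeR's exact test and 0 with the replicate block, and ranged from 0 to 3 when leaving out each library. The 3 transcripts called between groups A and C became 5, 7, 6 and 0 under the same settings and ranged from 0 to 1. The 6 partner genes called between groups A and B became 10 at the adjusted p alone and 2 with the replicate block, and ranged from 0 to 6; the 5 between groups A and C became 8 with total count scaling and ranged from 1 to 6. Replicate numbers did not pair the libraries. With the block, DNMT1 and DNMT3A (A with B) and DNMT1 (A with C) no longer passed the adjusted p (0.0817, 0.0997 and 0.0616). Of these, only DNMT1 (A with B) had been called, and no other of the 9 genes changed its call.

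With total count scaling the median of all genes was -0.48, -0.68 and -0.17 (A with B, A with C, B with C), against -0.02, -0.01 and 0.04 with TMM. With it TET2 (A with B) changed sign to -0.32, EZH1 (A with C) to -0.30, and DNMT1 and DNMT3B (B with C) to -0.039 and -0.074, none past the threshold. EZH1 (A with B) changed sign with the block (0.0015) and with known transcripts only (0.23), HOXD8 (B with C) with the block (0.045) and DDX4 (B with C) with the exact test (0.00045). When leaving out each library, values ranged from -0.11 to 0.30 for TET2 and -0.23 to 0.088 for EZH1 (A with B), and from -0.042 to 0.34 for DNMT1, -0.10 to 0.35 for DNMT3B, -0.10 to 0.057 for TET3, -0.37 to 0.38 for HOXD8 and -1.72 to 0.48 for DDX4 (B with C). The ratios ranged from -0.10 to 0.38 (DNMT3B to DNMT3A), -0.26 to 0.049 (DNMT1 to DNMT3A) and -0.69 to 0.18 (TET1 to TET3). Except where fewer libraries were fitted, the causes were not tested. With 3 libraries per age, differences near the spread of group A were not detectable.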

Other observations

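Genes that Polycomb and DNA methylation are known to silence were listed as further readouts, with no claim that the 9 enzymes acted on them. Of 33 HOX genes, textbook Polycomb targets, 32 were found and 9 passed the filter on low counts. Of these 9, 4 were called lower at 12 months and 3 at 24 months. HOXA2, HOXA3 and HOXA7 passed the filter through group A alone, so that they could be called in no other direction, and the counts say nothing about HOX genes as a class. HOXA3 stood at 2.47, 4.67 and 3.17 CPM in group A, 0.29, 0.11 and 0 CPM in group B and 0.06, 0.10 and 0 CPM in group C (-4.60 ± 0.94 SE, adjusted p = 0.0211, in group B, and at least 21.6-fold lower in group C, adjusted p = 0.00797). HOXA2 stood at 1.24, 1.59 and 1.29 CPM in group A and fell to the floor of 3 counts in both older groups, at least 8.09-fold and 8.65-fold lower (adjusted p = 0.0145 and 0.0122). HOXA7 stood at 0.46, 1.12 and 0.65 CPM in group A and had no count later, at least 4.35-fold and 4.65-fold lower (adjusted p = 0.0246 and 0.0215). At 12 months the calls of all 3 genes were lost without B1, B2 or B3. At 24 months HOXA2 lost its call without C2 or C3 and HOXA7 without A3, C1, C2 or C3, whereas HOXA3 kept it without any 1 library.

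Of 10 germline genes known to be silenced by DNA methylation in somatic tissue, 9 were found, and DDX4 alone passed the filter. It passed through the older groups and could be called only higher, from 0.26, 0.11 and 0.26 CPM in group A to 3.28, 5.62 and 2.22 CPM in group B (4.17 ± 0.64 SE, adjusted p = 0.0110) and 8.72, 0.75 and 1.42 CPM in group C (4.16 ± 1.08 SE, adjusted p = 0.0335). Without C1 the value in group C was 2.50 (adjusted p = 0.1003), and the call there was lost without A1, A3, C1, C2 or C3, as was that in group B without B1, B2 or B3 (3.75 to 4.45). The group C level varied more than 10-fold between C1 and C2.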
